A study of Sus scrofa with 5 samples.

Results

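The 10 genes described here are the Notch receptors *NOTCH1*, *NOTCH2* and *NOTCH3*, the ligands *DLL1*, *JAG1* and *JAG2*, and the target genes *HES1*, *HES5*, *HEY1* and *HEY2*, chosen by name among the 30029 genes counted in porcine blastoids. Blastoids are blastocyst-like structures assembled from pluripotent stem cells. They were made from porcine embryonic stem cells (pESCs), for which the labels give iBlastoid medium and day 6 and the methods also describe a protocol with a first step in 4FXY medium, and were picked by hand, pooled and dissociated, and 2 libraries (blastoid 1 and blastoid 2) were sequenced with a 10x Genomics kit. The pESCs themselves, cultured in 4FIXY medium, were measured in 3 bulk libraries. According to the methods the pESCs came from parthenogenetic blastocysts and were maintained on mouse embryonic fibroblast feeders, while 1 of the 3 bulk columns is named IVFP25. Each assay has 1 condition and no untreated group, so the comparisons are between groups of cells within the blastoids.

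Notch signalling works between neighbouring cells. A ligand of the Delta or Jagged kind on 1 cell binds a Notch receptor on the next, the receptor is cut, and its intracellular part enters the nucleus, where it joins RBPJ on DNA and activates genes such as those of the HES and HEY families, which encode transcriptional repressors. In neural tissue the pathway is known for lateral inhibition, in which cells that start to become neurons carry Delta ligands and hold their neighbours back, and in mesenchyme and vessel walls for Jagged and HEY functions.

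Library 1 held 7369 cells with at least 11223 UMIs (unique molecular identifiers, 1 per captured RNA molecule) and library 2 held 8175 cells with at least 9807. The median cell had 29728 UMIs in library 1 and 27588 in library 2, and 9 cell barcodes occurred in both. Cells were sorted into 6 gates, each named for 1 gene. A cell entered a gate when it had at least 3 UMIs of the gate gene and at least 20% of the CPM that 0.5% of the library's cells exceed for that gene, and 876 cells that passed several gates were left out. The gates held 364 cells for *CRABP1*, 79 for *THSD7B*, 1574 for *POU5F1*, 1615 for *GABRP*, 1808 for *TP63* and 758 for *COL3A1*, and 8470 cells passed none. Within a gate the UMIs of a library were summed and are given as CPM, a gene's counts in 1000000 UMIs of that sum, and *n* is 2 libraries throughout. Nothing in the sources says that the libraries came from separate cultures, so the p-values measure the spread between these 2 libraries, which may be technical.

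The gates differed in known marker genes. Summed over 9 neural genes the level was 1063 and 1046 CPM in the *CRABP1* gate and at most 398 elsewhere. Summed over 8 neuronal genes it was 1107 and 1117 CPM in the *THSD7B* gate and at most 188 elsewhere. Among these genes *ISL1* was higher in the *GABRP* gate (104 to 113 CPM) than in the *THSD7B* gate (50.6 to 69.6). *POU4F1* had 0 to 0.893 CPM in the *THSD7B* gate. Without *COL3A1* itself, 7 mesenchyme genes summed to 3759 and 3660 CPM in the *COL3A1* gate and to at most 175 in the other gates, and the same gate also had the highest sums of 5 hypoblast genes (343 and 333 CPM) and of 5 endothelial genes (138 and 116 CPM). Those sums rest on few genes: *GATA6* and *GATA4* carried the first, with *FOXA2* at 0 and *SOX17* at 0.269 to 1.26 CPM, and *TEK* (98.9 to 116 CPM) the second, with *PECAM1* at 2.13 CPM or less, *ESAM* at 1.55 or less and *CDH5* at 0.134 or less. Without *POU5F1*, 6 pluripotency genes summed to 541 and 710 CPM in the *POU5F1* gate and to at most 150.3 elsewhere. *DNMT3B* (204 to 327 CPM) and *UTF1* (213 to 240) carried that sum, and *NANOG* and *TDGF1* were highest there at 11.7 CPM or less. *SOX2* (87.0 to 102 CPM) was near its level in *CRABP1* (91.9 to 96.3). *LIN28A* (22.0 to 24.8 CPM) was near its level in *THSD7B* (20.5 to 21.2). Trophectoderm genes, which include the widely expressed keratins *KRT8* and *KRT18*, were highest in the *GABRP* gate (17686 and 17783 CPM) but stood at 2377 CPM or more in every gate. The keratins carried that sum, at 8612 to 8808 and 8141 to 8405 CPM. *GATA3*, *SFN* and *TEAD4* were also highest there on average. *GATA2* (54.7 to 54.8 CPM) was higher in *TP63* (68.7 to 72.4), *TFAP2C* (32.7 to 34.7) in *POU5F1* (52.7 to 67.3) and *CDX2* (1.06 to 1.40) in *COL3A1* (4.06 to 7.52). Without *GABRP*, 5 amnion genes also summed highest in the *GABRP* gate (799 and 783 CPM), though *TFAP2A* was higher in *TP63*. Without *TP63*, 5 surface ectoderm genes summed to 2067 and 1966 CPM in the *TP63* gate and to more in the *GABRP* gate (2309 and 2334). *KRT19* carried those sums, while *GRHL2* and *TFAP2A* were higher in *TP63* and *GRHL3* in *GABRP*. *KRT5* had 0.243 CPM or less in the *TP63* gate. The gates are therefore called by their genes and not by a cell type. Free RNA was read in droplets of 10 to 100 UMIs, called empty droplets below, and the level of each of the 10 genes there is given beside its level in cells. Every cell held at least 9807 UMIs, so a similar CPM does not mean that a cell's counts were free RNA. How much free RNA the cells held was not measured.

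The 4 target genes lie on different chromosomes or far apart in the Sscrofa11.1 (susScr11) genome: *HES1* at chr13:131135970-131137865 on the plus strand, *HES5* at chr6:64409110-64410541 on the minus strand, *HEY1* at chr4:56859640-56863807 on the plus strand and *HEY2* at chr1:37219887-37231321 on the minus strand. The 250 bases before the annotated gene start are shown for *HES5* and *HEY2*, whose windows hold the letters that RBPJ is known to bind, since the target genes are the readout of the pathway in the results that follow. Sequences were read from the RefSeq assembly, 5′ to 3′ on the gene's own strand, and capitals mark TGGGAA or its reverse complement TTCCCA.
HES5, chr6:64410542-64410791, minus strand: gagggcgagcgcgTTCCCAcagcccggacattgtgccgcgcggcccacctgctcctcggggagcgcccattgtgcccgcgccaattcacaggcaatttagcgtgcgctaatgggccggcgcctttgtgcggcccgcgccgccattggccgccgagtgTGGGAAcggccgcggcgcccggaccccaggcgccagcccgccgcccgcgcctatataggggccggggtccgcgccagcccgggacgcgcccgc
HEY2, chr1:37231322-37231571, minus strand: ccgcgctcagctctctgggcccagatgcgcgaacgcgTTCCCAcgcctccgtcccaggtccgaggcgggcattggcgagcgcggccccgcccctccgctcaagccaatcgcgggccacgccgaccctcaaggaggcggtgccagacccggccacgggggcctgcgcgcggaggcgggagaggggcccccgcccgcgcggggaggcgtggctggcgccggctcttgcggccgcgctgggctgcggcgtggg

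*HES5* held 2 copies, which start 237 and 93 bases before the gene start, and *HEY2* held 1, at 213 bases before it. All 3 of these copies also carry the flanking base of the longer form GTGGGAA, searched on both strands, which contains the shorter one. The windows of the other genes, apart from *HES1*, are not described here. Among 19559 protein-coding genes 24.6% had at least 1 copy of the short form in the same window, 3.31% had 2 or more and 5.28% had the longer form. The letters are a description of the window and not a measured binding site. *HEY2*'s most abundant transcript in pESCs starts 422 bases downstream of the gene start used here. The window of *HES1* held no copy, but its annotated transcript begins 7 bases before the start codon, so the window there need not be the promoter. The same *HES1* model ends 4 bases after the stop codon, against 643 to 5706 bases of annotated 3′ untranslated region in the other 9 genes. The 10x kit reads RNA near its 3′ end, so *HES1* counts rest on a model that nearly lacks that end, and how many reads this lost was not tested.

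**Figure D1:**
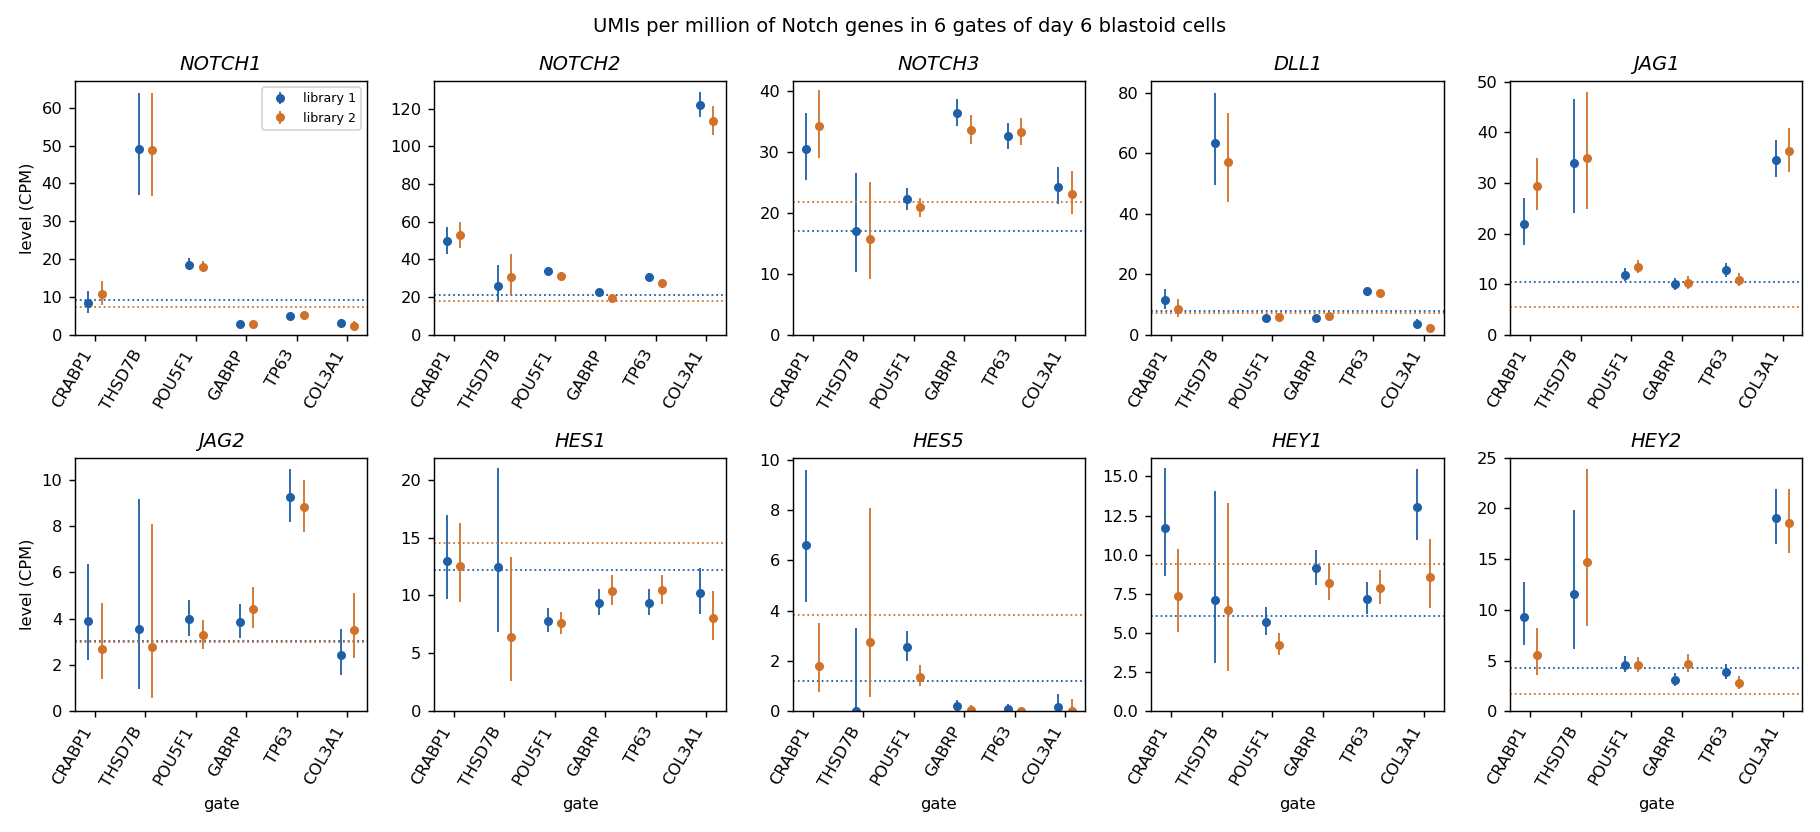
Level in CPM (y axis, linear from 0, own scale in each panel) of the 10 Notch genes in the 6 gates (x axis). Points are the 2 libraries, bars are exact 95% Poisson intervals of the counts, and dotted lines are the empty droplets of the library in the same colour. *NOTCH1* and *DLL1* are highest in the *THSD7B* gate, *NOTCH2* and *HEY2* in the *COL3A1* gate and *JAG2* in the *TP63* gate, while every *HES1* mean lies below the mean of the empty droplets.

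The receptors each had their own order of gates. *NOTCH1* stood at 49.1 CPM in library 1 and 48.8 in library 2 in the *THSD7B* gate, on 108 UMIs in all. The *POU5F1* gate followed at 18.6 and 18.0 CPM, and the *CRABP1* gate at 8.31 and 10.7. The *TP63* gate had 5.07 and 5.33 CPM, the *GABRP* gate 2.77 and 2.72, and the *COL3A1* gate 3.0 and 2.28. The values of the 2 libraries overlapped only between the *GABRP* and *COL3A1* gates at the bottom of this order, and the *THSD7B* mean was 18.5 times the *COL3A1* mean. Empty droplets held 9.15 and 7.25 CPM, so only the *THSD7B* and *POU5F1* gates lay above them in both libraries.

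*NOTCH2* was highest in the gate where *NOTCH1* had its lowest mean. The *COL3A1* gate had 122 and 113 CPM, 2.30 times the mean of the next gate, *CRABP1*, at 49.6 and 52.7 CPM. *POU5F1* (33.8 and 31.2 CPM), *TP63* (30.5 and 27.5) and *THSD7B* (25.9 and 30.4) came next, and the values of the last 2 of these overlapped between libraries. The *GABRP* gate was lowest at 22.6 and 19.6 CPM, near the empty droplets at 21.3 and 17.9 CPM. *NOTCH3* varied least of the receptors, by 2.14 times from highest to lowest gate. It was highest in the *GABRP* gate, at 36.3 and 33.6 CPM, followed by *TP63* (32.6 and 33.3) and *CRABP1* (30.5 and 34.2), and lowest in the *THSD7B* gate at 17.0 and 15.7 CPM. Empty droplets held 17.1 and 21.8 CPM of *NOTCH3*, which is above its level in the *THSD7B* gate.

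Among the ligands, *DLL1*, the Delta ligand of neurogenesis, had the largest ratio between gates, 20.7 times from *THSD7B* to *COL3A1*. It reached 63.4 and 57.1 CPM in the *THSD7B* gate on 133 UMIs. The *TP63* gate had 14.3 and 13.8 CPM and the *CRABP1* gate 11.5 and 8.49, and these 3 gates lay above the empty droplets (7.93 and 7.25 CPM) in both libraries. *GABRP* (5.48 and 6.21 CPM) and *POU5F1* (5.70 and 5.94) overlapped between libraries, and *COL3A1* was lowest at 3.68 and 2.15 CPM. *NOTCH1* and *DLL1* thus had their highest and lowest levels in the same pair of gates.

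*JAG1* was high in 3 gates. *COL3A1* had 34.6 and 36.3 CPM and *THSD7B* 33.9 and 35.0, and these values overlapped between libraries. *CRABP1* had 22.0 and 29.5 CPM, and the *POU5F1*, *TP63* and *GABRP* gates lay between 10.0 and 13.4. Empty droplets held 10.4 and 5.55 CPM. *JAG2* was high in 1 gate, *TP63*, at 9.27 and 8.80 CPM, 2.19 times the mean of *GABRP* at 3.84 and 4.42 CPM. The other 4 gates had 2.42 to 3.98 CPM with overlapping values, and empty droplets 3.05 and 2.99 CPM. Outside *TP63* the CPM of *JAG2* was thus close to that of the empty droplets.

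The target genes were lower, and their CPM was less distinct from that of the empty droplets. *HEY2*, a repressor known from heart and vessel development, was the clearest. It had 19.1 and 18.5 CPM in the *COL3A1* gate and 11.6 and 14.7 in the *THSD7B* gate, where it rested on 29 UMIs. The *CRABP1* gate had 9.28 and 5.59 CPM, and the other 3 gates 2.81 to 4.72 with overlapping values between neighbours, against 4.27 and 1.71 CPM in empty droplets. *HEY1* had 13.1 and 8.6 CPM in the *COL3A1* gate, 11.7 and 7.37 in *CRABP1* and 5.70 and 4.27 in *POU5F1*, the lowest. Its empty droplets held 6.10 and 9.38 CPM, and no gate exceeded both of these in both libraries.

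*HES1* had 12.9 and 12.5 CPM in the *CRABP1* gate and 7.61 to 7.81 in the *POU5F1* gate, and between 6.45 and 12.5 CPM in the rest. Empty droplets held 12.2 and 14.5 CPM, and 10 of its 12 gate values lay at or below those of the same library. *HES5*, a direct target expressed in neural progenitors, was rare, with 167 UMIs over all 12 sums. The *CRABP1* gate had 27 UMIs in library 1 (6.60 CPM, exact 95% Poisson interval 4.35 to 9.60) and 8 in library 2 (1.79 CPM, 0.772 to 3.52), and the *POU5F1* gate had 71 (2.54 CPM, 1.99 to 3.21) and 46 (1.37 CPM, 1.01 to 1.83). The *THSD7B* gate had 0 and 3 UMIs, and the *GABRP*, *TP63* and *COL3A1* gates together 12. Empty droplets had 2 UMIs (1.22 CPM) and 9 (3.84 CPM), above both *CRABP1* and *POU5F1* in library 2. Intervals cover counting error only.

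Cells that passed no gate had levels in the middle of the gates for most of the genes: 6.54 and 6.74 CPM of *NOTCH1*, 37.0 and 35.2 of *NOTCH2*, 30.4 and 29.4 of *NOTCH3*, 7.93 and 7.73 of *DLL1*, 14.8 and 12.2 of *JAG1*, and 4.92 and 4.71 of *JAG2*.

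**Figure D2:**
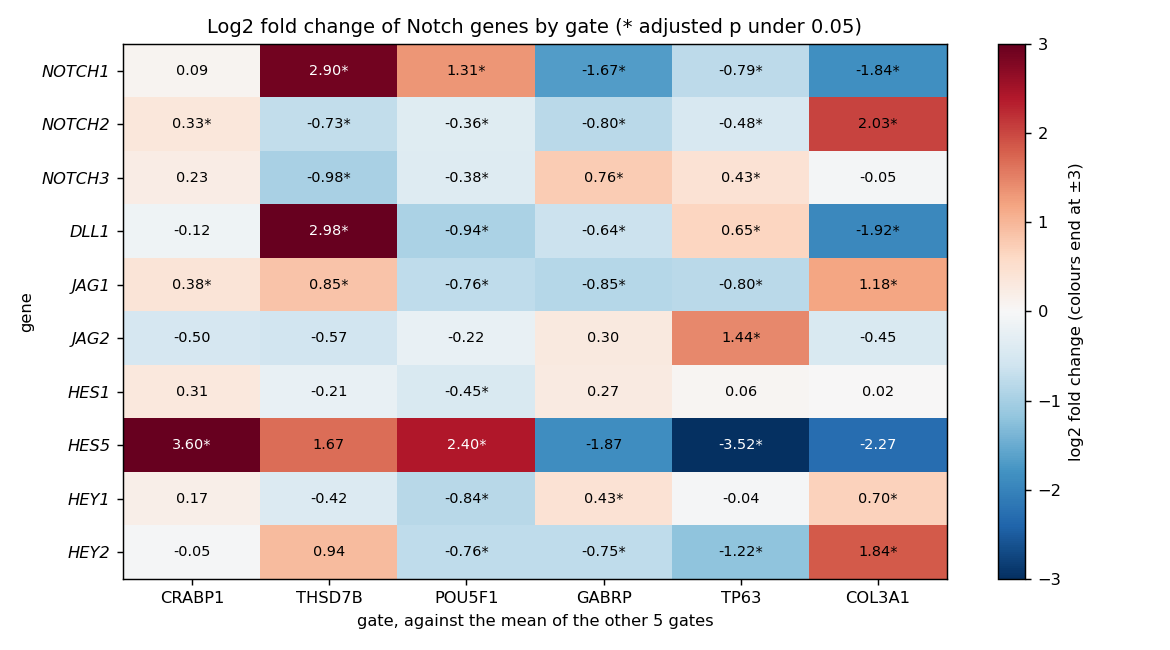
Log2 fold change (colour and printed value) of the 10 Notch genes (rows) in each gate (columns) against the mean of the other 5 gates on the log scale; asterisks mark an adjusted p under 0.05 in edgeR's quasi-likelihood test, n = 2 libraries. The highest values are *HES5* in the *CRABP1* gate (3.60, on 35 UMIs), *DLL1* (2.98) and *NOTCH1* (2.90) in the *THSD7B* gate. The *HES5* value is a fit against gates with few or no UMIs.

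Each gate was then compared with the mean of the other 5 in 1 fit of all 12 sums over 17603 genes, by the quasi-likelihood test of edgeR, with p-values adjusted after Benjamini and Hochberg over all genes, and a gene counts as higher or lower at an adjusted p under 0.05. All 10 genes passed the filter on low counts. *HES5* had at most 0.205 CPM in the *GABRP*, *TP63* and *COL3A1* gates, and passed only through the gates where it was higher. Its calls as higher in the *CRABP1* and *POU5F1* gates are thus not separate evidence. In bulk sums such as these, fewer cells that carry an RNA and less of it per cell cannot be told apart.

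A further fit set each gate against all other cells in place of the mean of the other 5 gates, and its values are given where they lost a call or moved it by over 1.5 times. In the *THSD7B* gate 3 of the 10 genes were higher, where 7.91% of all genes were, and 2 were lower, where 9.02% were. The median log2 fold change was 0.32 over the 10 genes and −0.09 over all genes. *DLL1* rose by 2.98 on the log2 scale (SE 0.17, edgeR adjusted p = 5.98e-09). *NOTCH1* rose by 2.90 (SE 0.17, edgeR adjusted p = 5.74e-09). *JAG1* rose by 0.85 (SE 0.19, edgeR adjusted p = 0.00589), and it missed the threshold when either *THSD7B* sum was left out (0.94 without library 1 and 0.84 without library 2), with an edgeR adjusted p from 4.92e-05 to 0.0715 over all alternatives. *NOTCH3* fell by 0.98 (SE 0.18, edgeR adjusted p = 0.00132), and by 0.59 when cells of several gates were given to the highest. *NOTCH2* fell by 0.73 (SE 0.16, edgeR adjusted p = 0.00551), which missed the threshold without the library 1 sum of this gate (−0.55) and against all other cells (−0.46), with an edgeR adjusted p from 0.000609 to 0.198 over all alternatives. *HEY2*, at 0.94 (SE 0.35, edgeR adjusted p = 0.0802), did not pass. The gate held 38 and 41 cells, the fewest of the 6, and without its library 1 sum 1190 of all genes were called in place of 2980. Of the called genes 46.7% were higher, but 58.3% with relative log expression scaling and 75.4% with no scaling beyond library size.

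In the *COL3A1* gate 4 of the 10 genes were higher, against 25.7% of all genes, and 2 were lower, against 21.7%. The median over the 10 was −0.02 and over all genes 0.02. *NOTCH2* rose by 2.03 (SE 0.07, edgeR adjusted p = 1.25e-12) and *HEY2* by 1.84 (SE 0.16, edgeR adjusted p = 1.4e-07). *JAG1*, a ligand known in mesenchyme and vessels, rose by 1.18 (SE 0.10, edgeR adjusted p = 1.03e-07). *HEY1* rose by 0.70 (SE 0.18, edgeR adjusted p = 0.00531), but missed the threshold without the library 1 sum of this gate (0.30) and against all other cells (0.42). *DLL1* fell by 1.92 (SE 0.19, edgeR adjusted p = 3.43e-07) and *NOTCH1* fell by 1.84 (SE 0.17, edgeR adjusted p = 2.51e-07). Of the called genes 54.1% were higher, or 43.0% with library size alone.

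In the *TP63* gate 3 genes were higher (20.1% of all genes) and 5 lower (15.3%), with a median of −0.26 over the 10 and 0.03 over all genes. *JAG2* rose by 1.44 (SE 0.15, edgeR adjusted p = 1.71e-06), *DLL1* by 0.65 (SE 0.11, edgeR adjusted p = 0.000274) and *NOTCH3* by 0.43 (SE 0.07, edgeR adjusted p = 0.000246). *HEY2* fell by 1.22, *JAG1* by 0.80, *NOTCH1* by 0.79 and *NOTCH2* by 0.48, at adjusted p from 1.99e-05 to 0.000172 in edgeR. Against all other cells the calls of *JAG1* (−0.22), *HEY2* (−0.59) and *NOTCH3* (0.19) were lost, and *NOTCH1* was at −0.52 and *NOTCH2* at −0.31. *HES5* was also lower, but its fitted change rests on 3 UMIs in this gate and was lost in 7 of 24 alternatives with a test, with −0.42 with the gate at 10% and −6.41 without the library 1 sum of this gate.

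In the *GABRP* gate 2 genes were higher (27.8% of all genes) and 5 lower (23.2%), with a median of −0.70 over the 10 and 0.00 over all genes. *NOTCH3* rose by 0.76 (SE 0.07, edgeR adjusted p = 3.04e-07). *HEY1* rose by 0.43 (SE 0.16, edgeR adjusted p = 0.0387), and 11 of 24 alternatives with a test lost that call, among them both fits that left out a *GABRP* sum, with 0.18 by library size alone and 0.24 against all other cells. *NOTCH1* fell by 1.67 (SE 0.13, edgeR adjusted p = 4.44e-08), and *JAG1* fell by 0.85, *NOTCH2* by 0.80, *HEY2* by 0.75 and *DLL1* by 0.64, at adjusted p from 7.03e-07 to 0.0027 in edgeR. *HEY2* missed the threshold without the library 1 sum of this gate (−0.46) and against all other cells (−0.16), and that reference also lost *JAG1* (−0.25) and *DLL1* (−0.29) and put *NOTCH3* at 0.50. *DLL1* was lost with the gate at 10% as well (−0.34), and was at −1.27 with the gate at 40%. *NOTCH3* was thus the receptor that was higher in both the *GABRP* and *TP63* gates, where *NOTCH1* and *NOTCH2* were lower. Of the called genes 54.6% were higher, and 30.4% with library size alone, which moved the median log2 fold change of all genes by −0.25 here, 0.15 in the *CRABP1* gate, 0.17 in the *THSD7B* gate and −0.10 in the *COL3A1* gate.

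In the *POU5F1* gate, 2 genes were higher (26.9% of all genes) and 7 lower (24%), with a median of −0.42 over the 10 and 0.01 over all genes. *NOTCH1* rose by 1.31 (SE 0.10, edgeR adjusted p = 3.07e-08) and *HES5* by 2.40 (SE 0.52, edgeR adjusted p = 0.00115), the latter against gates with few or no UMIs, so that its size is not a measured ratio. *DLL1* fell by 0.94, *HEY1* by 0.84, *JAG1* and *HEY2* by 0.76 each, *HES1* by 0.45, *NOTCH3* by 0.38 and *NOTCH2* by 0.36, at adjusted p from 1.68e-05 to 0.00749 in edgeR. Against all other cells the calls of *JAG1* (−0.18) and *HEY2* (−0.17) were lost, and *DLL1* was at −0.58, *NOTCH2* at −0.20 and *HES5* at 1.38. *HES1* missed the threshold without the *THSD7B* sum of library 1 (−0.35) and *NOTCH3* with the gate at 10% (−0.24), and *HES5* was at 3.89 without the *THSD7B* sum of library 2 and *NOTCH3* at −0.57 with the gate at 40%. *JAG2*, at −0.22 (SE 0.18, edgeR adjusted p = 0.321), was the 1 gene not called. Cells of this gate were the deepest, with a median of 38948 and 34523 UMIs against 17544 to 27716 in the others.

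In the *CRABP1* gate 3 genes were higher, against 18% of all genes, and 0 were lower by edgeR, against 17%; at an unadjusted p under 0.05 the count lower was also 0, and DESeq2 called 0. The median was 0.20 over the 10 and 0.01 over all genes. *HES5* rose by 3.60 (SE 0.65, edgeR adjusted p = 0.000404), *JAG1* by 0.38 (SE 0.13, edgeR adjusted p = 0.0331) and *NOTCH2* by 0.33 (SE 0.09, edgeR adjusted p = 0.0107), of which the *HES5* change is likewise a fit against gates with few or no UMIs. The *JAG1* call was lost in 10 of 24 alternatives with a test, with 0.09 without the library 2 sum of this gate, but was 0.77 against all other cells and 0.66 with the gate at 40%. *NOTCH2* missed the threshold with the gate at 40% (0.27), and *HES5* was at 2.19 against all other cells. Without the library 2 sum of this gate only 1 of the 3 calls was left, and without the library 1 sum *HES5* missed the threshold (adjusted p up to 0.0897 over all alternatives). Of the called genes 51.3% were higher, or 70.8% with library size alone.

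The share of cells with at least 1 UMI was read after each cell was thinned to 10000 UMIs, which left out at most 4 shallower cells in any sum of a gate. *DLL1* was seen in 19 of 38 cells of the *THSD7B* gate in library 1 (50.0%, exact Clopper-Pearson 95% interval 33.4 to 66.6) and in 15 of 41 in library 2 (36.6%, 22.1 to 53.1). It was seen in 4.06% and 2.36% of *COL3A1* cells, a gate whose *DLL1* level lay below that of empty droplets. *NOTCH1* was seen in 50.0% and 39.0% of *THSD7B* cells, in 14.7% of *POU5F1* cells in either library and in 1.88% and 1.84% of *GABRP* cells. *NOTCH2* was seen in 65.4% and 64.0% of *COL3A1* cells, against 19.9% and 13.8% of *GABRP* cells. *HEY2* was seen in 16.0% and 16.5% of *COL3A1* cells, and *JAG2* in 8.75% and 9.54% of *TP63* cells. At a fixed depth the share largely follows from the CPM, so their agreement is not separate evidence. For all 10 genes the gate with the highest mean share was the gate with the highest mean CPM. It held for 9 of 10 in library 1 alone and 8 of 10 in library 2 alone. Without thinning, when deep cells show a gene more often, it held for 7 of 10, and *NOTCH1* was seen in 45.1% of *POU5F1* cells and 63.6% of *THSD7B* cells.

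Cells of the *THSD7B* gate with a *DLL1* UMI were set beside those without one, both at 10000 UMIs per cell. A cell without a *DLL1* UMI at this depth may still carry the RNA. Without thinning 25 of 38 cells in library 1 and 26 of 41 in library 2 had a *DLL1* UMI. The cells were dissociated, so their neighbours are not known and lateral inhibition cannot be read from this split. *NOTCH1* had 17 UMIs in the 19 cells with *DLL1* in library 1 (89.5 CPM, exact 95% Poisson interval 52.1 to 143) and 9 UMIs in the 19 cells without (47.4 CPM, 21.7 to 89.9). In library 2 it had 16 UMIs in 15 cells with *DLL1* (107 CPM, 61.0 to 173) and 10 in 26 without (38.5 CPM, 18.4 to 70.7). *JAG1* had 36.8 CPM with and 21.1 without in library 1, and 66.7 and 26.9 in library 2. Both were higher beside *DLL1* in both libraries, but the intervals of *NOTCH1* and *JAG1* overlapped in each. Of the 9 genes 4 were higher and 2 lower with *DLL1* in both libraries, and none had intervals apart in both. The split was not read over all genes, so these counts have no share to be set against. The lower genes were *HEY2* and *NOTCH3*. *HEY2* had 0 CPM with and 15.8 without in library 1, and 13.3 and 26.9 in library 2. *NOTCH3* had 10.5 and 15.8, then 0 and 19.2 CPM. Both were also lower with at least 2 *DLL1* UMIs required. Without thinning 3 were higher and 4 lower. The lower genes were *HES1*, *HEY2*, *NOTCH2* and *NOTCH3*. Without thinning *NOTCH2* had 19.5 CPM with and 37.4 without *DLL1* in library 1, and 16.6 and 52.1 in library 2. Its intervals in library 2 lay apart (8.27 to 29.6 and 32.7 to 78.95 CPM). *NOTCH1* was higher beside *DLL1* in both libraries also without thinning, where its intervals in library 2 lay apart (46.9 to 87.2 and 11.4 to 43.6 CPM), and with at least 2 *DLL1* UMIs required. *JAG1* was then lower beside *DLL1* in library 1 (18.2 against 21.1 CPM). *HES5* had 1 UMI in all these cells and *HES1* 5, so their relation to *DLL1* was not readable at this depth. *HEY2* had the most UMIs of the target genes, 12. Neuronal genes were read in the same split. *ELAVL4* had 132 CPM with and 57.9 without *DLL1* in library 1 and 127 and 53.8 in library 2, and *INSM1* 147 and 63.2, then 120 and 84.6. *ELAVL3*, *DCX* and *NEUROD1* were also higher beside *DLL1* in both libraries, *NEUROD1* by little in library 2 (153 and 150 CPM). *STMN2* and *NEUROD4* were equal in library 1 and higher beside *DLL1* in library 2, and *NEUROG1* had 474 and 284 CPM in library 1 and 393 and 450 in library 2. The part of these genes in the *NOTCH1* and *JAG1* values was not tested.

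The higher *NOTCH1* beside *DLL1* was also seen in the *GABRP* and *TP63* gates, but not in both libraries of any of the remaining gates. In the *GABRP* gate at 10000 UMIs per cell it had 11.1 CPM with (3 UMIs) and 1.70 without in library 1, and 18.9 and 1.10 in library 2. In the *TP63* gate it had 10.6 and 5.32 CPM in library 1 and 4.26 and 4.21 in library 2. In the *CRABP1* gate it was lower beside *DLL1*, at 7.14 and 10.1 CPM in library 1 and 7.14 and 12.4 in library 2. The cells with *DLL1* there held 1 *NOTCH1* UMI in each library. In *COL3A1* it had 0 and 3.48, then 0 and 0.906 CPM, and in *POU5F1* 10.0 and 17.1, then 19.2 and 16.9. In *CRABP1*, *COL3A1* and *POU5F1* its direction without thinning differed between libraries. Without thinning the intervals of *NOTCH1* lay apart in both libraries of the *GABRP* and *TP63* gates. The values were 5.60 and 2.19, then 5.87 and 1.99 CPM in *GABRP* and 7.13 and 4.20, then 8.09 and 4.14 CPM in *TP63*. At 10000 UMIs per cell the *NOTCH1* intervals overlapped in both libraries of *TP63* and in library 1 of *GABRP*. They lay apart in library 2 of *GABRP* (7.61 to 39.0 and 0.476 to 2.17 CPM). Without thinning, deep cells show a *DLL1* UMI more often. The intervals cover counting error only, and doublets were not called. *HES5* in the *CRABP1* gate also had intervals apart in both libraries without thinning. It had 16.0 CPM with *DLL1* (8.53 to 27.4) and 4.27 without (2.33 to 7.16) in library 1. In library 2 it had 7.60 (2.47 to 17.7) and 0.786 (0.162 to 2.30), on 5 and 3 UMIs. At 10000 UMIs per cell these intervals overlapped. Neuronal genes beside *DLL1* are not described for these gates, and their part in the values was not tested.

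The wider pathway was followed in 49 further genes, of which 47 passed the filter. Of these 47, 12 (25.5%) were higher and 3 (6.38%) lower in the *THSD7B* gate, against 7.91% and 9.02% of all genes. In the *CRABP1* gate 9 (19.1%) were higher and 12 (25.5%) lower, against 18% and 17%. In the *POU5F1* gate 11 (23.4%) were higher and 14 (29.8%) lower, against 26.9% and 24%. The *GABRP* gate had 16 (34%) higher and 17 (36.2%) lower, against 27.8% and 23.2%, the *TP63* gate 10 (21.3%) and 11 (23.4%), against 20.1% and 15.3%, and the *COL3A1* gate 10 (21.3%) and 18 (38.3%), against 25.7% and 21.7%. The median log2 fold change of the list was 0.11 in the *THSD7B* gate and between −0.12 and 0.04 in the others.

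In the *THSD7B* gate *MFNG*, a Fringe enzyme that adds sugar to Notch receptors, had 73.2 and 54.3 CPM and at most 1.11 on average in any other gate (log2 fold change 6.69, SE 0.27, edgeR adjusted p = 6.82e-11). *HES6*, a family member known to promote neuronal differentiation and to oppose HES1, had 328 and 347 CPM against an average of 11.1 to 50.3 elsewhere (3.44, SE 0.07, edgeR adjusted p = 3.4e-14). *HEYL*, a relative of the HEY targets, had 12.5 and 12.9 CPM and at most 1.31 on average elsewhere (5.02, SE 0.53, edgeR adjusted p = 6.08e-06). *HES6* was also the gene with most free RNA of these, at 75.6 CPM on average in empty droplets.

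In the *CRABP1* gate another Fringe gene was high: *LFNG* had 55.2 and 66.2 CPM there and 20.8 or less on average in the rest (2.77, SE 0.13, edgeR adjusted p = 1.44e-10), while *MFNG* had 0.489 and 0.447 CPM. The remaining Fringe gene *RFNG* was lower there (−0.68, SE 0.10, edgeR adjusted p = 5.39e-05), at 24.4 and 23.7 CPM, and in the *THSD7B* gate (−0.58, SE 0.15, edgeR adjusted p = 0.0162), and averaged 47.1 CPM in empty droplets. *HES3*, a repressor of neural progenitors, had 7.33 and 6.70 CPM (3.66, SE 0.31, edgeR adjusted p = 1.84e-07). *DLL4* passed the test there (2.93, SE 0.97, edgeR adjusted p = 0.0284), but on 3.66 CPM in library 1 and 0 in library 2, where 3 counts would be 0.670 CPM. *HES7*, the oscillating repressor of somite formation, was lower (−2.84, SE 0.69, edgeR adjusted p = 0.0041). It was higher in the *THSD7B* gate (2.38, SE 0.54, edgeR adjusted p = 0.00596), at 5.01 CPM on average, in the *TP63* gate (2.21, SE 0.24, edgeR adjusted p = 3.08e-06), at 4.03 CPM, and in the *GABRP* gate (1.56, SE 0.27, edgeR adjusted p = 0.000138), at 2.43 CPM. The *HES7* change in the *CRABP1* gate rests on 1 UMI in each library. In empty droplets *LFNG* averaged 14.3 CPM, *HES7* 2.80 and *HES3* 0.731. *LFNG* and *RFNG* were named here after their values were seen.

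Elsewhere the named genes mostly fell, at adjusted p of 0.00522 or less in edgeR. In the *COL3A1* gate *MFNG* fell by 2.39, *HES7* by 2.27 and *HES6* by 2.17. In the *GABRP* gate *HES3* fell by 2.13, *LFNG* by 1.69 and *DTX1*, a ubiquitin ligase and Notch target, by 1.66. In the *TP63* gate *HES3* fell by 3.03 and *DTX1* by 1.85. In the *POU5F1* gate *HEYL* fell by 3.13, the co-activator *MAML2* fell by 1.48 and *NEURL1B*, an enzyme that acts on the ligands, rose by 1.54. Several of these changes rest on few UMIs, so that their sizes are not measured ratios: in libraries 1 and 2 *MFNG* had 5 and 0 UMIs and *HES7* 2 and 3 in the *COL3A1* gate, *HES3* 5 and 5 in the *GABRP* gate and 2 and 5 in the *TP63* gate, *DTX1* 9 and 4 and then 5 and 9 in the same gates, and *HEYL* 5 and 1 in the *POU5F1* gate. *MAML2* averaged 102 CPM in empty droplets and 85.8 in the *POU5F1* gate. *RBPJ*, the DNA-binding partner of all Notch receptors, was present in every gate, from 54.7 CPM on average in *GABRP* to 124 in *CRABP1*, with 48.0 in empty droplets.

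HES repressors are known to hold down proneural genes, so 14 proneural and neuronal genes were read in the same sums; some of them also belong to the neuronal marker list above. The 8 with at least 10 CPM in some gate are named here. *NEUROD1*, *NEUROD4* and *INSM1* reached that level in the *THSD7B* gate alone, so that their place there was fixed by this choice, and no count over the 8 is given. *NEUROG1*, which commits cells to sensory and other neurons, had 286 CPM in either library and a log2 fold change of 6.85 (SE 0.17, edgeR adjusted p = 2.18e-13). *NEUROD1* (131 and 104 CPM), *NEUROD4* (76.8 and 46.0) and *INSM1* (90.2 and 58.9), which act after *NEUROG1*-like factors, had at most 2.04 CPM on average in any other gate. The neuronal genes *STMN2* (403 and 510 CPM), *ELAVL3* (110 and 84.7), *ELAVL4* (79.4 and 54.3) and *DCX* (26.8 and 26.7) completed the 8. Some of them were higher in other gates as well, at adjusted p of 0.00381 or less in edgeR: *ELAVL3* (log2 fold change 2.52, 42.6 CPM on average) and *STMN2* (0.74, 121 CPM) in the *POU5F1* gate, *DCX* (1.52, 19.0 CPM) and *STMN2* (0.48, 111 CPM) in the *CRABP1* gate and *NEUROG1* (1.55, 12 CPM) in the *TP63* gate. Empty droplets averaged 70.3 CPM of *STMN2*, 7.56 of *ELAVL3*, 5.97 of *NEUROG1*, 5.30 of *ELAVL4* and 2.07 or less of the other 4. *NEUROG2*, *NEUROG3*, *NEUROD2* and *NEUROD6* were at 0 in both libraries of the *THSD7B* gate, which allows up to 2.68 and 2.76 CPM (3 counts per sum).

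The 3 genes whose log2(CPM + 1) followed each member most closely over the 12 sums were found among 9669 genes with a mean of at least 10 CPM, as a description over sums that share libraries and gates. *NOTCH1* went with *SLIT1* (Pearson's r = 0.972), *STMN2* (0.972) and *ELAVL3* (0.963), of which the last 2 stand in the neuronal list. *DLL1* went with *GSE1* (0.985), *SRRM4* (0.976) and *EPB41* (0.974), *NOTCH2* with *ALOX5AP* (0.987), *DCBLD2* (0.984) and *GAS1* (0.983), and *NOTCH3* with *CHMP4B* (0.967), *SCUBE3* (0.957) and *TUB* (0.937). *JAG1* went with *MARCKS* (0.980), *MAP1B* (0.967) and *DHRS4* (0.966), *JAG2* with *SIK3* (0.921), *CACNA2D3* (0.919) and *SYNPO2* (0.888), and *HEY2* with *FAM163A* (0.952), *NFIC* (0.928) and *MARCKS* (0.927). *MARCKS* was thus near both *JAG1* and *HEY2*. *HES5* went with *KDM8* (0.951), *SEMA5B* (0.943) and *SF3B5* (0.930), *HEY1* with *ABHD2* (0.920), *LRRC41* (0.882) and *EIF4A2* (0.880), and *HES1* with *RPS6KC1* (0.950), *LOC102159559* (0.902) and *LOC100524794* (0.889).

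The pESCs from which blastoids are made carried all 10 genes. FPKM, the fragments of a transcript scaled by its length and by all mapped fragments, corrects for length, so levels can be ordered between genes. *NOTCH1* was the highest of the 10, at 28.7 FPKM in PA_4P7, 21.1 in PAP25 and 19.8 in IVFP25 (23.2 ± 4.77, SD, n = 3), above 83.9% of the genes listed above 0. In the order IVFP25, PA_4P7 and PAP25, which is kept from here on, *HES1* had 11.5, 11.6 and 20.7 FPKM (14.6 ± 5.30), with PAP25 apart from the other libraries. *NOTCH2* had 8.82, 14.1 and 13.1 FPKM (12 ± 2.81) and *NOTCH3* 9.03, 8.87 and 10.8 (9.58 ± 1.09). Neighbours among these 4 overlapped in their library ranges, and all 4 lay above every ligand.

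**Figure D3:**
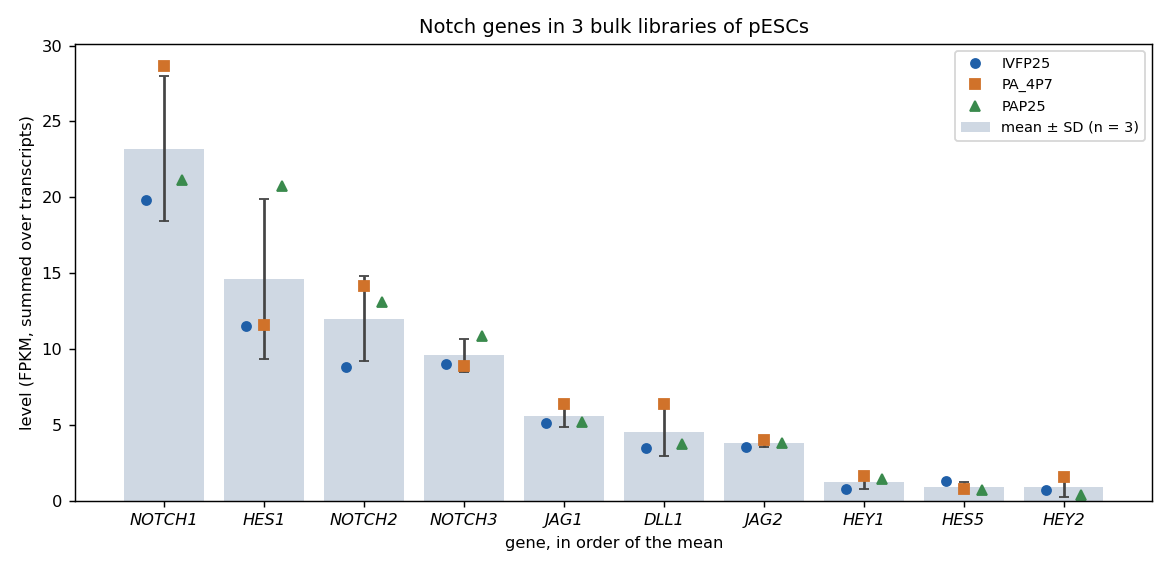
Level in FPKM summed over transcripts (y axis, linear from 0) of the 10 Notch genes (x axis, in order of the mean) in pESCs. Bars are means with SD over 3 libraries, and symbols are the libraries IVFP25, PA_4P7 and PAP25. The 3 receptors and *HES1* lie at 8.82 FPKM or more in every library, and *HEY1*, *HES5* and *HEY2* at 1.63 or less.

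*JAG1* had 5.12, 6.38 and 5.19 FPKM (5.56 ± 0.709), *DLL1* 3.50, 6.37 and 3.75 (4.54 ± 1.59) and *JAG2* 3.53, 4.01 and 3.83 (3.79 ± 0.241), with overlapping ranges between neighbours. The remaining targets were below the ligands in every library. *HEY1* had 0.748, 1.63 and 1.41 FPKM, *HES5* 1.30, 0.776 and 0.743, and *HEY2* 0.714, 1.57 and 0.362, and their ranges overlapped. PA_4P7 was the highest of the 3 libraries for *NOTCH1*, *NOTCH2*, all 3 ligands, *HEY1* and *HEY2*. The share of all genes that were highest in PA_4P7 is not given here. With 3 libraries of 1 group no test was made, and feeder RNA in these cultures was not measured here.

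In the same libraries 36 of the 49 wider pathway genes had at least 1 FPKM throughout. The share of all genes at that level is not given here, so the count is a description only. *RBPJ* had 9.49, 12.1 and 7.47 FPKM, *HES6* 16.8, 10.2 and 11.2 and *LFNG* 5.43, 6.31 and 6.76. *MFNG* had 0.983, 0.998 and 2.28 FPKM, and *HEYL* and *DLL4* at most 0.0351.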

How the data were processed

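Porcine blastoids (2 libraries) and pESCs (3 libraries) were analysed. Per the labels and methods, the authors checked the 10x reads with Dr.seq2 and counted them with Cell Ranger 7.1.0 on susScr11, and the deposited values are raw UMI counts of every barcode. For bulk RNA-seq the authors used Trim Galore 0.6.4, HISAT2 2.2.1 and StringTie 2.2.1, and the deposited values are FPKM per RefSeq transcript (81391 transcripts), added up here per gene symbol. They carry no depth. The columns name no replicate, so they were used as 3 libraries of 1 group. Replicates were not pooled.

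Cells were called by the order-of-magnitude rule, at a 10th of the UMIs that the top 1% of expected cells reach. The 2 libraries had 289452283 and 302211552 UMIs in all barcodes. Gates as in the text gave 12 sums of 1086027 to 33497936 UMIs. Doublets were not called. Cells that passed several gates were left out, 376 and 396 of them for both *GABRP* and *TP63*. Counts were filtered with filterByExpr, scaled by TMM and tested with edgeR 4.0.16 in R 4.3.3, each gate against the mean of the other 5, adjusted over all genes. On counts simulated for the *CRABP1* gate (16679 genes) 152 of 200 changed genes were recovered and 6 unchanged genes were called.

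The sums of 1 library share its preparation, which pairs them. Deviations of same-library sums from the gate means correlated at −0.002 to 0.211 over 15 pairs of gates. The 10 genes and all lists were chosen with earlier results of these data known, and the gate thresholds were set here. The text names the 10 genes, up to 3 called pathway genes per gate with the largest change, the 3 genes closest to each member and proneural genes of 10 CPM or more. *TUBB3*, *KRT14* and *KRT17* were not analysed here, and the window of *HEY1* is not reported here. Alternatives were DESeq2 1.42.0, other scalings, filters, gates and references, the library as a block and each sum left out.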

Additional observations from a re-analysis of the deposited data

How the results depend on the processing

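The 38 differences called between gates were recomputed under 26 alternatives, 24 of them with a test, and none changed sign. Of 912 tested values 49, from 18 differences, missed the threshold, most often *HEY1* in the *GABRP* gate, *JAG1* in the *CRABP1* gate and *HES5* in the *TP63* gate. *NOTCH1* and *DLL1* in the *THSD7B* gate, *NOTCH2* and *HEY2* in the *COL3A1* gate and *JAG2* in the *TP63* gate kept their calls in every fit that tested them. Of the 22 differences not called, 11 passed in at least 1 alternative and 13 changed sign in at least 1.

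The 13 differences that changed sign did so in 48 values, none past the threshold where a test was possible, and all are log2 fold changes. *HES1* in the *COL3A1* gate (0.023 as reported) was −0.0017 with RLE size factors, −0.083 with library size alone, −0.0035 with DESeq2, −0.052 with cells of several gates given to the highest, −0.0083 with the mitochondrial filter and −0.12 with all other cells as the reference. *HEY2* in the *CRABP1* gate (−0.046) was 0.11 with library size alone, 0.17 and 0.13 with the gate at 10% and 40%, 0.0047 without the cells of highest UMIs and 0.42 with all other cells as the reference. *DLL1* in the *CRABP1* gate (−0.12) was 0.032 with library size alone. With the gate at 10%, *NOTCH1* in the *CRABP1* gate was −0.042, *HES5* in the *THSD7B* gate −6.38 and in the *GABRP* gate 0.25, *HEY1* in the *TP63* gate 0.077 and *NOTCH3* in the *COL3A1* gate 0.025. With cells of several gates given to the highest, *HES1* in the *THSD7B* gate was 0.034. With all other cells as the reference, in the *CRABP1* gate *NOTCH3* was −0.035, *DLL1* 0.13 and *HEY1* −0.032, *JAG2* in the *GABRP* gate was −0.066 and *HES1* in the *TP63* gate −0.058. With sums or a library left out, the *CRABP1* gate ranged from −0.17 to 0.30 for *NOTCH1*, −0.34 to 0.034 for *DLL1*, −0.18 to 0.43 for *HEY1* and −0.46 to 0.31 for *HEY2*. The *THSD7B* gate ranged from −0.73 to 0.19 for *HES1* and −5.75 to 2.85 for *HES5*, the *TP63* gate from −0.13 to 0.28 for *HES1* and −0.29 to 0.24 for *HEY1*, and *HES1* in the *COL3A1* gate from −0.21 to 0.14.

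The number of the 10 genes called rose from 3 to 5 in the *CRABP1* gate with library size alone. It fell to 4 in the *GABRP* gate and 5 in the *TP63* gate when all other cells were the reference. With 1 sum left out it was 1 to 3 in the *CRABP1* gate, the lowest without that gate's library 2, and 3 to 6 in the *THSD7B* gate, the lowest without its library 1. Over all genes the *THSD7B* gate had 1965 calls with the gate at 10%, 1578 with all other cells as the reference, and 1190 to 2988 with 1 sum left out. A gate left with 1 sum is assumed to vary like the others. The causes were not tested.

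The replicate block (the library as a term) left 3 calls among the 10 genes in the *CRABP1* gate and 5 in the *THSD7B* gate, and changed no call except *HES5* in the *GABRP* gate, which became lower (edgeR adjusted p = 0.0434, 0.111 without the block, and 0.00449 to 0.996 over all alternatives). Leaving out a whole library leaves no replicates, so only the values were compared.

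With at least 2 *DLL1* UMIs required, 1 of 9 genes was higher beside *DLL1* in both libraries of the *THSD7B* gate in place of 4, and 3 were lower in place of 2; without thinning 3 were higher and 4 lower. These *DLL1* counts have no share over all genes beside them. In pESCs the highest transcript alone gave 4.08 FPKM of *JAG1* and 2.62 of *JAG2*.

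Depth limits the *THSD7B* gate (79 cells) and *HES5* (167 UMIs in all gates), and for *HES1*, *HEY1* and *HES5* no gate exceeded the empty droplets in both libraries.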
